A study of Mus musculus with 2 samples.

Results

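The elastic fibre and crosslinking genes described here are 10 of the 52636 genes in a pair of RNA-seq tables from mouse. They are the rows whose gene name is Eln, Fbn1, Fbn2, Fbln1, Fbln2, Fbln5, Lox, Loxl1, Loxl2 or Loxl3, and each name occurred once in both tables. A library came from mice labelled miR-29a KO, which lack the microRNA miR-29a, and another from wild-type (WT) mice. Both groups were 8 weeks old and of strain C57BL/6, with no treatment named in the labels. Each library was made from total RNA of retinas pooled from 3 mice, so there was 1 library per group and no replicate. Every difference given here therefore compares these libraries and not the genotypes, with no p-value. The labels do not say how the knockout was made.

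Elastic fibres give tissues recoil. Tropoelastin, the product of Eln, is deposited on a scaffold of fibrillin microfibrils with the help of fibulins. Copper-dependent lysyl oxidases then oxidise lysines in elastin and collagens, which lets the chains crosslink. In the eye such fibres are known from vessel walls, the sclera and Bruch's membrane, the layer beneath the pigment epithelium. The miR-29 family is known to repress genes of the extracellular matrix, elastin, fibrillin 1 and collagens among them.

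The library labelled KO held 24876925 counts over 19541 genes, and the library labelled WT 26805902 counts over 19342 genes. Markers went against the labelled tissue. Of 17 retinal neuron markers, 16 lay under 1 CPM (the count of a gene per 1000000 counts of its library) in each library, with 11 at 0 counts in the library labelled KO and 10 at 0 in the library labelled WT. Fibroblast markers summed to 17706 CPM in the library labelled KO and 15462 CPM in the library labelled WT over 10 genes. The 12 macrophage markers summed to 1527 CPM in the library labelled KO, against 498 CPM in the library labelled WT, with none at 0. Xist had 0 and the Y-linked gene Ddx3y 376 counts in the library labelled KO, against 4288 and 67 in the library labelled WT, so the pools differed in sex chromosome transcripts too. The part of tissue content and sex in the values below was not tested. In bulk RNA, fewer cells of a type and less RNA per cell cannot be told apart. The precursor gene Mir29a had 0 counts in both libraries, which checks neither label, since such short RNAs are seldom counted in libraries of this kind.

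The microRNA sequences and the sites they could pair with are shown because a microRNA represses transcripts through such matches. The mature miR-29 sequences below are from RefSeq (GRCm38.p6). Capitals mark the seed, bases 2 to 8, which the family shares.
mmu-miR-29a-3p: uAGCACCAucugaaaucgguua
mmu-miR-29b-3p: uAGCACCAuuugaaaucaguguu
mmu-miR-29c-3p: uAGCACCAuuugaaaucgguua

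The match to this seed is the heptamer TGGTGCT on the transcript strand, and it was searched in the longest annotated 3' UTR of each gene (GENCODE M21, GRCm38). It occurred in 5 of the 10 members and 11 times in all. Eln and Lox held 3 copies each, Fbn1 and Loxl2 held 2 each, and Fbn2 held 1. Fbln1, Fbln2, Fbln5, Loxl1 and Loxl3 had no match in that window. Of 11585 measured protein-coding genes searched, 16.1% held the heptamer, 2.62% held 2 or more copies and 0.535% held 3 or more. UTRs with a match were longer, with a median of 2473 bases against 1048 without. A match is a description of letters and not a shown binding site.

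The sites of Eln, Fbn1 and Loxl2 are printed 5' to 3' on the transcript strand with the heptamer in capitals, 11 bases before it and 4 after it. The copies followed by A are 8-mer matches, the form usually held to be the strongest.
Eln, chr5:134703733-134703754, minus strand: ctcatcaacgtTGGTGCTactg
Eln, chr5:134703486-134703507, minus strand: ccaagggaaatTGGTGCTacat
Eln, chr5:134703473-134703494, minus strand: gtgctacatgtTGGTGCTtctt
Fbn1, chr2:125301170-125301191, minus strand: tgttgtctgttTGGTGCTagta
Fbn1, chr2:125300920-125300941, minus strand: agggtttgtaaTGGTGCTtatt
Loxl2, chr14:69694737-69694758, plus strand: agctcatggaaTGGTGCTactg
Loxl2, chr14:69695099-69695120, plus strand: agcattgtgaaTGGTGCTaata

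The last 2 Eln copies start 13 bases apart, so their printed windows overlap. Both Loxl2 copies, the first 2 of Eln and the first of Fbn1 are 8-mers, while the 3 Lox copies and the Fbn2 copy are heptamers only. An 8-mer thus occurred in 3 of 10 members, against 3.35% of the genes searched.

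**Figure D1:**
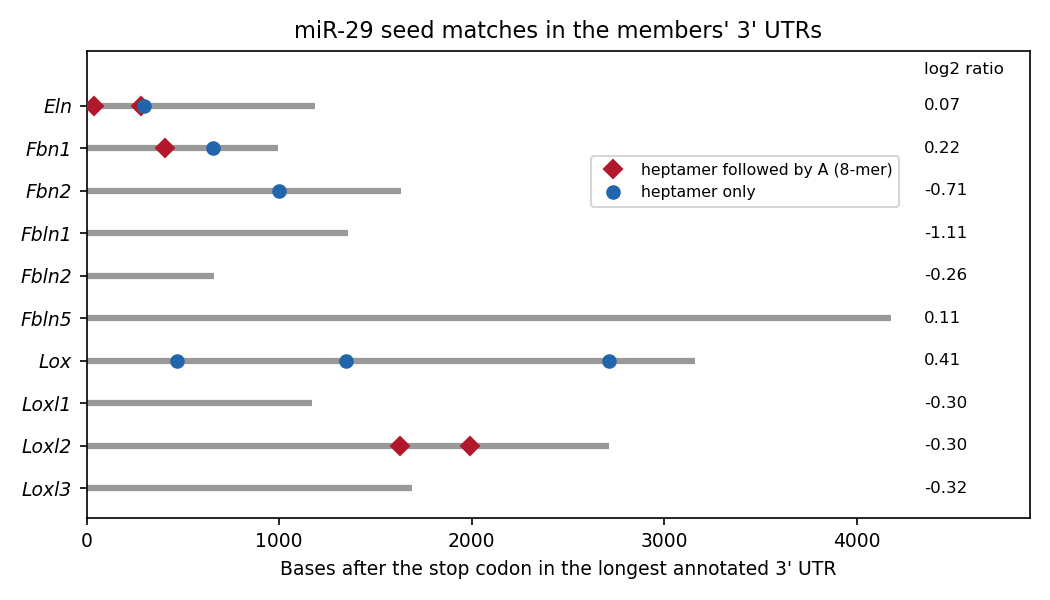
Positions of the miR-29 seed match in the longest annotated 3' UTR of each member, in bases after the stop codon; grey bars show UTR length, diamonds 8-mers and circles heptamers. The log2 ratio of the library labelled KO over the library labelled WT stands at the right, from 0.41 for Lox with 3 matches to -1.11 for Fbln1 with none.

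All 10 members passed the minimum of 50 counts in the higher library. Ratios were taken of CPM after 0.5 was added to each, and a gene was called where the log2 ratio reached 1 or -1, which is 2-fold. By this rule no member was higher in the library labelled KO, 1 was lower (Fbln1) and 9 were neither. Of 12382 measured genes, 4.47% were higher and 2.82% were lower. The member share of 10% lower rests on 1 gene. The median log2 ratio of the members was -0.28, against 0.06 over all measured genes, with 4 members above 0 and 6 below; corrected for GC content and length it was -0.08. At 1.5-fold, 0 members were higher and 2 lower (Fbln1 and Fbn2), where 13.3% and 8.88% of all measured genes were.

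The scaffold genes came in very unequal amounts, and none differed by 2-fold. Eln, on chromosome 5 (134702593 to 134747323, minus strand, GRCm38), had 53 counts in the library labelled KO (2.13 CPM, 95% exact interval 1.60 to 2.79), against 54 in the library labelled WT (2.01 CPM, 1.51 to 2.63). The elastin transcript was thus scarce in both, and its intervals overlapped almost wholly. The ratio of CPM was 1.06-fold, and its interval of 0.710 to 1.57 covered 1. With so few counts, an increase of up to 1.57-fold could not be told from none. All intervals here hold counting error only, because 1 library per group gives no spread between libraries. Copies of a molecule made by PCR are not marked, so the intervals may be too narrow even for that.

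Fbn1, which encodes fibrillin 1, the main microfibril protein of adult tissue and the gene mutated in Marfan syndrome, lies on chromosome 2 (125300594 to 125507993, minus strand). It had 3184 counts in the library labelled KO (128 CPM, 124 to 133) and 2945 in the library labelled WT (110 CPM, 106 to 114). In the library labelled KO it stood slightly higher, by 1.16-fold (1.11 to 1.23). Fbn2, on chromosome 18 (58008623 to 58210487, minus strand), encodes fibrillin 2, which is used mostly during development. Its counts were 296 in the library labelled KO (11.9 CPM, 10.6 to 13.3) and 529 in the library labelled WT (19.7 CPM, 18.1 to 21.5). Here the library labelled KO was the lower, by 1.66-fold (1.44 to 1.92), which is short of 2-fold. On the per-length scale of the authors' FPKM (counts per kilobase, scaled for library size), Fbn1 exceeded Fbn2 by 9.30 times in the library labelled KO and 4.81 times in the library labelled WT.

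Among the fibulins, Fbln1 differed by 2-fold and the others did not. Fbln1, on chromosome 15 (85205949 to 85286535, plus strand), encodes fibulin 1, which binds elastin and fibronectin and lies in the core of elastic fibres. It had 2404 counts in the library labelled KO (96.6 CPM, 92.8 to 101) and 5624 in the library labelled WT (210 CPM, 204 to 215). The intervals lay far apart, and in the library labelled KO Fbln1 was lower by 2.17-fold (2.07 to 2.28), with a log2 ratio of -1.11. Its whole counting interval lay beyond 2-fold.

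Fbln2, on chromosome 6 (91212455 to 91272540, plus strand), encodes fibulin 2, a partner of fibrillin and of basement membrane proteins. It had 8700 counts in the library labelled KO (350 CPM, 342 to 357), against 11246 in the library labelled WT (420 CPM, 412 to 427). In the library labelled KO it was lower by 1.20-fold (1.17 to 1.23), a log2 ratio of -0.26, or -0.09 after the correction for GC content and length described below. Fbln5, on chromosome 12 (101746565 to 101819055, minus strand), encodes fibulin 5, without which mice form disorganised elastic fibres. Its counts were 5460 in the library labelled KO (219 CPM, 214 to 225) and 5432 in the library labelled WT (203 CPM, 197 to 208). The ratio was 1.08-fold (1.04 to 1.12), a log2 ratio of 0.11. That sign turned after the same correction, to -0.07.

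The shares within the fibulin family shifted accordingly. By summed FPKM, Fbln1 made up 20.3% of these fibulins in the library labelled KO and 33.5% in the library labelled WT. Fbln2 made up 50.5% and Fbln5 29.2% in the library labelled KO, against 46.0% and 20.5% in the library labelled WT. Fbln5 stood above Fbln1 in the library labelled KO, by 1.44 times, and below it in the library labelled WT, at 0.610 times.

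**Figure D2:**
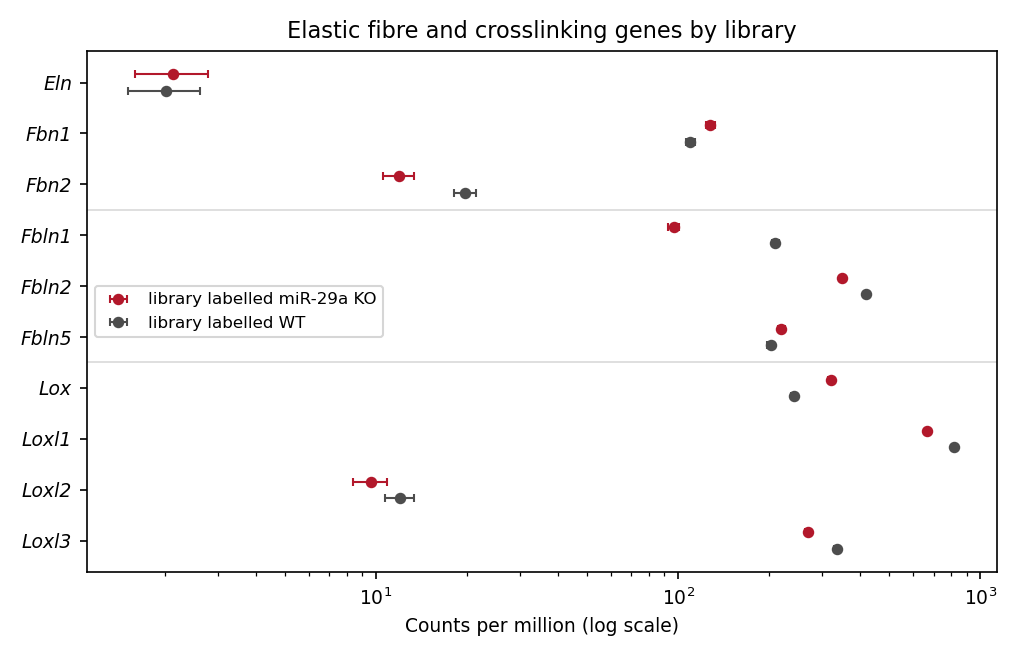
CPM (log axis) of the 10 members in the library labelled miR-29a KO (red) and the library labelled WT (grey); bars are 95% exact counting intervals and horizontal lines part scaffold genes, fibulins and lysyl oxidases. Levels run from about 2 CPM for Eln to 665 CPM in the library labelled KO and 818 CPM in the library labelled WT for Loxl1, and Fbln1 has the widest gap between libraries.

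Of the families among the members the lysyl oxidases were the most counted, and of the 4 genes listed Lox had a log2 ratio above 0 and the others below. Lox, on chromosome 18 (52516067 to 52529867, minus strand), encodes the enzyme that oxidises lysines in both elastin and fibrillar collagens. It had 7984 counts in the library labelled KO (321 CPM, 314 to 328), against 6475 in the library labelled WT (242 CPM, 236 to 248). The fold of 1.33 (1.29 to 1.37) was the largest upward difference among the 10 members as counted, but the correction for GC content and length described below brought the log2 ratio from 0.41 to 0.05. Loxl1, on chromosome 9 (58287738 to 58313186, minus strand), encodes the enzyme needed for elastin renewal in adult mice and is a risk gene for exfoliation glaucoma in humans. Its counts were 16551 in the library labelled KO (665 CPM, 655 to 676) and 21937 in the library labelled WT (818 CPM, 808 to 829). The library labelled KO was lower, by 1.23-fold (1.21 to 1.26), a log2 ratio of -0.30 that the same correction brought to -0.0042.

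Loxl3, on chromosome 6 (83034173 to 83052562, plus strand), acts on collagens and is needed for palate and vertebral development in mice. It had 6682 counts in the library labelled KO (269 CPM, 262 to 275), against 8967 in the library labelled WT (335 CPM, 328 to 342). This left Loxl3 1.25 times lower on the KO side (1.21 to 1.29). Loxl2, on chromosome 14 (69609068 to 69695834, plus strand), encodes an enzyme that crosslinks type IV collagen of basement membranes. It was scarce, with 239 counts in the library labelled KO (9.61 CPM, 8.43 to 10.9) and 321 in the library labelled WT (12.0 CPM, 10.7 to 13.4). The fold was 1.25 lower (1.05 to 1.48), and its interval came close to 1. As counted, Loxl1, Loxl2 and Loxl3 thus stood at nearly the same log2 ratio, -0.30, -0.30 and -0.32, while Lox stood at 0.41. This grouping did not hold after the correction for GC content and length. Loxl1 (-0.0042) then stood near Lox (0.05), and Loxl2 (-0.35) and Loxl3 (-0.30) lay lower.

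By summed FPKM of the lysyl oxidases among the members, Loxl1 took 61.4% in the library labelled KO and 66.5% in the library labelled WT. Lox took 20.3% in the library labelled KO, against 13.5% in the library labelled WT. Loxl3 took 17.8% in the library labelled KO and 19.5% in the library labelled WT, and Loxl2 took 0.541% in the library labelled KO and 0.593% in the library labelled WT. Loxl1 exceeded Lox by 3.02 times in the library labelled KO and by 4.94 times in the library labelled WT, whereas Loxl1 exceeded Loxl3 by 3.46 times in the library labelled KO and 3.42 times in the library labelled WT. Such ratios within a library do not depend on how the libraries are scaled to each other, but they carry the trend with GC content described below.

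**Figure D3:**
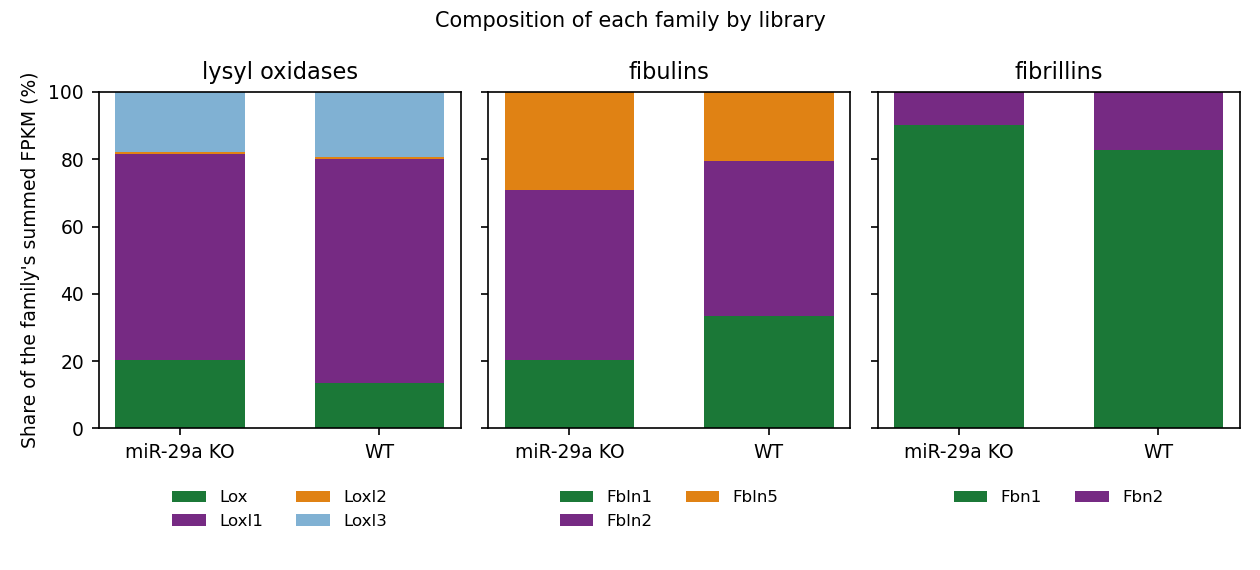
Share of each gene in the summed FPKM of the members of its family (%). The library labelled miR-29a KO stands left of the library labelled WT. Lox, Fbln2, Fbln5 and Fbn1 take larger shares in the library labelled KO, and Fbln1, Fbn2, Loxl1, Loxl2 and Loxl3 smaller ones.

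Per unit of length, Loxl1 stood highest and Eln lowest of the members in both libraries. In the library labelled KO, FPKM was 205 for Loxl1, 67.9 for Lox, 59.4 for Loxl3, 55.9 for Fbln2, 32.3 for Fbln5, 22.5 for Fbln1, 10.7 for Fbn1, 1.81 for Loxl2, 1.16 for Fbn2 and 0.268 for Eln. Neighbours in this order had counting intervals that did not overlap. For the library labelled WT, FPKM was 263 for Loxl1, 76.9 for Loxl3, 69.7 for Fbln2, 53.1 for Lox, 50.8 for Fbln1, 31.0 for Fbln5, 9.58 for Fbn1, 2.34 for Loxl2, 1.99 for Fbn2 and 0.263 for Eln. There the intervals of Lox and Fbln1 overlapped, and so did those of Loxl2 and Fbn2. Loxl1 stood in the top 1.62% of detected genes by FPKM in the library labelled KO and the top 1.38% in the library labelled WT, while Eln was in the top 71.8% in the library labelled KO and 73.2% in the library labelled WT. By FPKM, Lox ranked above Loxl3 and Fbln2 in the library labelled KO and below both in the library labelled WT.

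The length used for a gene bears on this order. The authors' FPKM of Eln rests on 8098 bases, the union of its annotated exons, whereas its longest annotated transcript has 3853. Per kilobase of the longest transcript Eln reached 0.553 CPM in the library labelled KO and 0.523 CPM in the library labelled WT, still the lowest of the 10. On that scale Lox (67.7) stood above Loxl3 (65.5) but below Fbln2 (73.1) in the library labelled KO, and below Loxl3 (81.6), Fbln2 (87.7) and Fbln1 (57.3), at 50.9, in the library labelled WT. The place of Lox beside Fbln2 in the library labelled KO thus depends on the length used. For Fbn2 the length behind the FPKM was 10480 bases and the exon union in GENCODE M21 is 13215, and the source of that difference was not tested. The kit does not mark strand, and 535 exon bases of Loxl3 overlap the protease gene Htra2 on the other strand (1893 counts in the library labelled KO and 2709 in the library labelled WT). Fbn1 shares 2442 exon bases with Gm9913 on the other strand (7 counts in the library labelled KO and 5 in the library labelled WT). Reads from these shared bases cannot be assigned with certainty.

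Base composition moved with the ratios. Over 12371 measured genes, which are not independent replicates, the log2 ratio and the GC content of the longest transcript had a Spearman's rho of -0.44. Lox, with 43.9% GC the lowest of the members, had the highest ratio, and Loxl1 had the highest GC content, 61.0%. The lowest ratio was that of Fbln1, at 54.7% GC, while Eln, at 58.8%, had a ratio above 0. Subtracting the median of genes of like GC content and length left a log2 ratio of 0.05 for Lox and -0.0042 for Loxl1. Fbln1 kept -1.03, Fbn2 -0.66, Loxl2 -0.35, Loxl3 -0.30 and Fbn1 0.26. For Eln the corrected value was 0.33. The corrected median of all measured genes was 0.

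**Figure D4:**
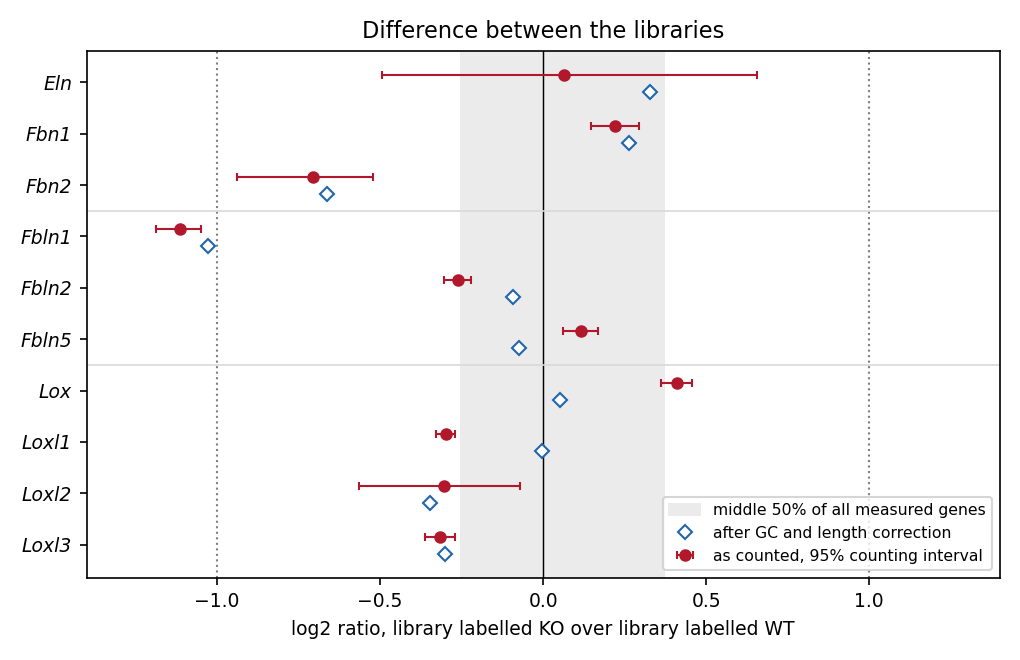
Log2 ratio of the library labelled KO over the library labelled WT for each member as counted (red, with the 95% counting interval of the CPM fold) and after the GC and length correction (open diamonds). The grey band is the middle 50% of all measured genes (-0.25 to 0.37) and dotted lines mark 2-fold; Fbln1 lies beyond -1 both ways, whereas Lox and Loxl1 come close to 0 after the correction.

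Members with and without a seed match can be set side by side. The 5 with a match had log2 ratios of 0.07 (Eln), 0.22 (Fbn1), -0.71 (Fbn2), 0.41 (Lox) and -0.30 (Loxl2), with a median of 0.07 and 3 above 0. The 5 without had -1.11 (Fbln1), -0.26 (Fbln2), 0.11 (Fbln5), -0.30 (Loxl1) and -0.32 (Loxl3), with a median of -0.30 and 1 above 0. Over all genes searched the medians as counted were 0.14 with a match and 0.05 without. These were not corrected for GC content and length, with which the ratios moved. Corrected for GC content and length, the members' medians were 0.05 with a match and -0.09 without. In the library labelled KO none of the 5 with a match was 2-fold higher, where 3.98% of all genes with a match were and 4.53% of those without. The Loxl2 UTR, with a pair of 8-mers, and the Fbn2 UTR, with a heptamer, belong to genes that stood lower in the library labelled KO.

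Of the genes that build microfibrils and elastic fibres with the members, nearly all were short of 2-fold, as were 11479 of 12382 measured genes. Of 19 such partners 16 were measured, of which 0 were 2-fold higher, 1 was lower and 15 were neither. Over all measured genes 4.47% were higher and 2.82% lower. The median log2 ratio of these partners was -0.42. Of the 16, 13 lay below 0, or 11 after the correction for GC content and length, where 45.0% of all measured genes lay below 0 as counted. The lower gene was Mfap4, whose product binds elastin and fibrillin, with 34 counts in the library labelled KO and 261 in the library labelled WT, a 7.12-fold difference (4.97 to 10.5). The next lowest log2 ratios were -0.83 for Thsd4, which promotes fibrillin deposition, and -0.83 for the fibulin family gene Fbln7. Efemp1, which encodes fibulin 3, had the highest FPKM of the list, 830 in the library labelled KO and 591 in the library labelled WT, and the highest log2 ratio, 0.54. Efemp2, which encodes the elastic fibre assembly protein fibulin 4, had an FPKM of 181 in the library labelled KO and 236 in the library labelled WT, with a log2 ratio of -0.32. The microfibril gene Mfap2 (-0.53), Emilin1 (-0.46) and the latent TGF-beta binding protein gene Ltbp4 (-0.66), which also takes part in fibre assembly, lay below 0. Corrected for GC content and length, the list median was -0.19, and Mfap2 stood at -0.17, Emilin1 at -0.20, Ltbp4 at -0.36, Efemp1 at 0.30 and Mfap4 at -2.39.

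Partners in crosslinking and proenzyme processing were split. Of 12 genes 11 were measured, with 1 higher, 0 lower and 10 neither. Among all measured genes 4.47% were higher and 2.82% lower. The list's median log2 ratio was -0.08, which the correction turned to 0.12. The higher gene was Tll1, which encodes a protease of the BMP1 family that can activate prolysyl oxidase, with 946 counts in the library labelled KO and 416 in the library labelled WT (2.45-fold, 2.18 to 2.76). Bmp1, the founding protease of that family, had a log2 ratio of -0.08. Atp7a, the copper pump that loads lysyl oxidases, stood at 0.66, and the lysyl hydroxylase gene Plod2 at 0.62, or 0.37 and 0.25 after the correction. The other hydroxylase genes lay below 0, at -0.58 for Plod1 and -0.41 for Plod3. Fmod, which encodes a collagen-binding proteoglycan, had 60 counts in the library labelled KO and 130 in the library labelled WT, a log2 ratio of -0.88. Pcolce, which encodes an enhancer of procollagen processing, had the highest FPKM of the list, 316 in the library labelled KO and 411 in the library labelled WT. Loxl4, the remaining lysyl oxidase, was as scarce as Loxl2, with 199 counts in the library labelled KO and 200 in the library labelled WT.

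Enzymes able to degrade elastin included 3 genes that were 2-fold higher in the library labelled KO. Of 10 genes 7 were measured, of which 3 were 2-fold higher, 0 lower and 4 neither. Of all measured genes, 4.47% were 2-fold higher and 2.82% lower. The list's median log2 ratio was 0.61, or 1.17 with a minimum of 200 counts and 0.42 on the FPKM. Of the 7, 6 lay above 0, where 55.0% of all measured genes did. Ctss, which encodes cathepsin S, had 1000 counts in the library labelled KO and 223 in the library labelled WT (4.83-fold, 4.18 to 5.61). Mmp12, the macrophage elastase gene, had 760 counts in the library labelled KO and 303 in the library labelled WT (2.70-fold, 2.36 to 3.10). Ctsk, which encodes cathepsin K, had 8652 counts in the library labelled KO and 4150 in the library labelled WT (2.25-fold, 2.16 to 2.33). The gelatinase gene Mmp2 was the most abundant, with an FPKM of 419 in the library labelled KO and 370 in the library labelled WT, followed by the cathepsin L gene Ctsl (273 in the library labelled KO and 230 in the library labelled WT). Mmp2 had a log2 ratio of 0.23 and Ctsl 0.30. The neutrophil genes Elane and Ctsg, and Mmp7, had 0 counts in both libraries. With 3 counts taken as the limit for a count of 0, that allows up to 0.121 CPM in the library labelled KO. In the library labelled WT it allows 0.112 CPM. This limit is not a Clopper-Pearson interval. Prtn3, also a neutrophil gene, was measured, with 90 counts in the library labelled KO and 100 in the library labelled WT. Of the macrophage markers 11 of 12 were measured, 10 were 2-fold higher and 0 lower, and the median log2 ratio was 1.93. Their part in the difference of the degrading enzymes was not tested. The list of degrading enzymes was chosen with earlier results of these data known, so its count of 3 higher genes is a description only.

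**Figure D5:**
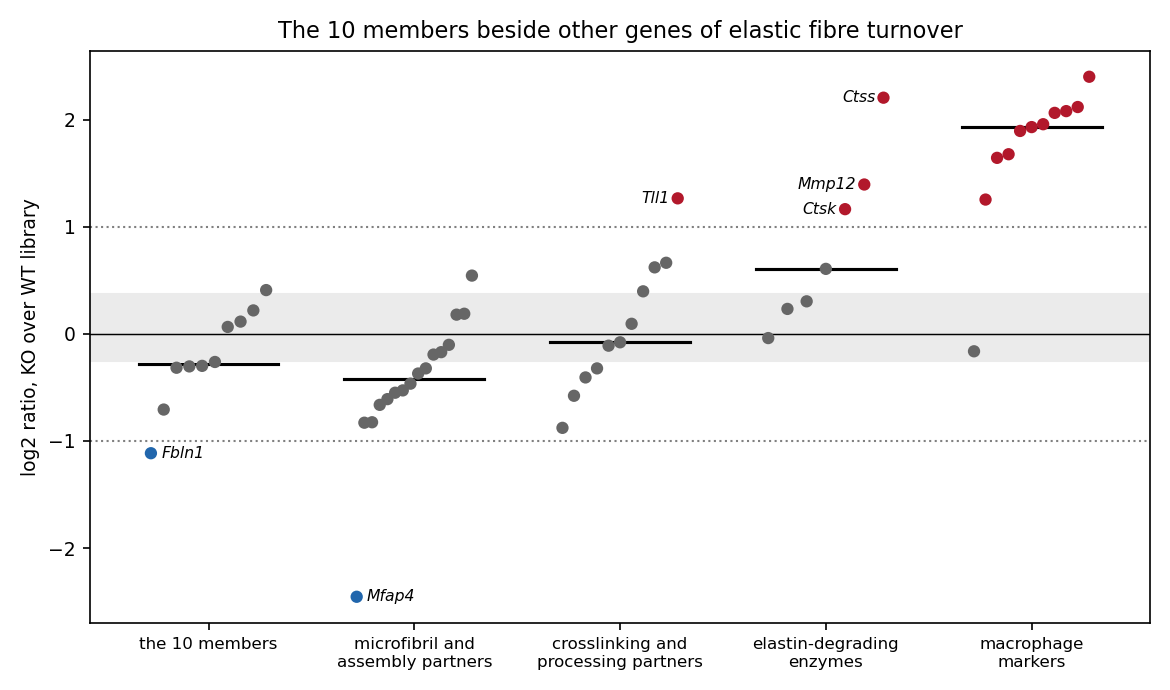
Log2 ratio of the library labelled KO over the library labelled WT for measured genes of each list (points; red 2-fold higher, blue 2-fold lower), with the list median as a black line and the middle 50% of all measured genes in grey. Fbln1 and Mfap4 are the 2-fold lower genes of the fibre lists, Tll1 is higher, and Ctss, Mmp12 and Ctsk are higher among the degrading enzymes beside 10 of 11 measured macrophage markers.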

How the data were processed

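RNA-seq counts and FPKM were deposited by the authors for 1 library per group. Alignment was with HISAT2 to mm10 (GRCm38), per the submitters' processing notes; per the labels' protocols, ribosomal RNA was removed and a NEBNext Ultra RNA kit was used. Read counter, annotation release and strand setting: not given in the sources used here. Deposited FPKM values fit union exon lengths of GENCODE M21 within 1% for 90.9% of genes in the library labelled KO and 90.8% in the library labelled WT, with scaling totals of 0.983 and 0.945 times the summed counts. Counts were used as deposited, apart from 4 genes whose ratio of count to FPKM differed between tables by more than 1%.

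CPM used the summed counts. The log2 ratio took 0.5 CPM added to each value, and folds were ratios of CPM with 95% Clopper-Pearson intervals. Measured means 50 or more counts in the higher library. No test was run. The calculation was tested on simulated data. GC and length correction subtracted medians in 10 bins of each. Named genes were all members and, per list, those with the largest ratio or highest FPKM; other list genes were chosen after their values were seen. Members and lists were chosen with earlier results of these data known, as were the Xist and Ddx3y checks. Alternatives were TMM (edgeR 4.0.16), median-of-ratios, a reduced total, other pseudocounts, minimums and folds, the FPKM and the correction. Versions were R 4.3.3, Python 3.11.15, scipy 1.17.1, numpy 2.4.6, matplotlib 3.10.9 and pandas 2.3.3.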

Additional observations from a re-analysis of the deposited data

How the results depend on the processing

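In the library labelled KO, Fbln1 was lower by 2-fold under every scaling, pseudocount and minimum tried, with log2 ratios from -1.18 to -1.03, and no member was 2-fold higher under any setting. At 1.5-fold 2 members were lower and at 4-fold 0. Among the members, Fbln5 alone changed sign (-0.07 to 0.12 over the settings). Median-of-ratios factors moved the members' median to -0.35 and the microfibril partners' to -0.48. The GC and length correction moved these medians to -0.083 and -0.19, the crosslinking partners' to 0.12 and the hypoxia list's to -0.64. The crosslinking partners' median was 0.0079 with a minimum of 200 counts and with no minimum. The degrading enzymes' median of 0.61 became 1.17 with a minimum of 200 counts and 0.42 on the FPKM. Against 554 higher and 349 lower genes of all measured, adding 2 CPM gave 351 higher and 214 lower (and 2 lower hypoxia genes), a minimum of 200 counts 340 and 213, the FPKM 322 higher, the 1.5-fold threshold 1645 and 1100, and the 4-fold threshold 103 and 58. Requiring an 8-mer left 3 members with a site. Shares by count without length kept the order of the members within each family. Loxl1 then took 52.6% in the library labelled KO and 58.2% in the library labelled WT. No paired analysis was possible because each group has 1 library. With 53 counts in the library labelled KO and 54 in the library labelled WT, depth limits Eln most.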

Other observations

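Lox, Loxl2 and Plod2 are known to rise under low oxygen, so other genes known to be induced by it were listed. Of the 9 measured, 6 lay below 0, where 45.0% of all measured genes did. Of 10 listed genes 9 were measured, with 0 higher by 2-fold, 4 lower and 5 neither (2.82% of all measured genes were lower), and a median log2 ratio of -0.34, or -0.64 after the GC and length correction. The mitochondrial protein gene Ndufa4l2 had 22 counts in the library labelled KO and 840 in the library labelled WT, a log2 ratio of -4.52. The lactate exporter gene Slc16a3 had 513 counts in the library labelled KO and 4814 in the library labelled WT, a log2 ratio of -3.09. Ankrd37 (-1.54) and the kinase gene Pdk1 (-1.01) were lower as well, and Bnip3 (-0.34) and Egln3 (-0.30) lay below 0 but short of 2-fold. The glucose transporter gene Slc2a1 (0.13), the growth factor gene Vegfa (0.49) and Adm (0.18), which encodes adrenomedullin, lay above 0. Lox stood at 0.41, Plod2 at 0.62 and Loxl2 at -0.30, or 0.05, 0.25 and -0.35 after the GC and length correction. Ankrd37 had 12 counts in the library labelled KO and 63 in the library labelled WT. Like Ndufa4l2, it reached the minimum count for a measured gene only in the library labelled WT, so the filter favoured such calls. The list was also chosen with earlier results of these data known. The counts of 4 lower and 6 below 0 are therefore descriptions only. The part of oxygen in these values was not tested.

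Smooth muscle cells are a main source of elastin in vessel walls, and several of their defining transcripts were scarce. The smooth muscle myosin gene Myh11 had 8 counts in the library labelled KO and 5 in the library labelled WT, and Cnn1, which encodes calponin, had 9 in the library labelled KO and 13 in the library labelled WT. Acta2, the smooth muscle actin gene that activated fibroblasts also express, had 3270 counts in the library labelled KO and 2179 in the library labelled WT. The list's most counted gene was Pdgfrb, the PDGF receptor gene that fibroblasts share with pericytes, with 3939 counts in the library labelled KO and 5569 in the library labelled WT. Cspg4, a pericyte proteoglycan gene, had 1018 in the library labelled KO and 1340 in the library labelled WT. The list of smooth muscle and pericyte markers summed to 338 CPM in the library labelled KO and 345 CPM in the library labelled WT. Endothelial markers summed to 65.6 CPM in the library labelled KO and 44.7 CPM in the library labelled WT. Of 8 measured endothelial markers 5 were 2-fold higher and 0 lower, where 4.47% and 2.82% of all measured genes were. Among the 5, Pecam1, Tie1 and Kdr reached the minimum of 50 counts only in the library labelled KO. They had 104, 57 and 58 counts there, against 38, 19 and 8 in the library labelled WT. The filter thus favoured such calls, and the count of 5 is a description only. The part of these markers in the members' values was not tested.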
